A study of Mus musculus with 2 samples.

Results

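The genes described here are 4 chemokine genes, Cxcl1, Cxcl2, Cxcl3 and Cxcl5, and the receptor gene Cxcr2, in mouse temporomandibular joint (TMJ) after injection of complete Freund's adjuvant (CFA). They were taken by symbol, and all 5 were found among the 32285 genes counted. Their transcripts were followed across cell types and in 2 libraries, 1 from wild-type (WT) mice and 1 from Prox1 mutant mice.

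CXC chemokines that carry a Glu-Leu-Arg motif near the amino terminus attract neutrophils through the receptor CXCR2, a G protein-coupled receptor on the neutrophil surface. CXCL1, CXCL2, CXCL3 and CXCL5 belong to this group and are made by stromal cells and myeloid cells after signals such as IL-1, TNF, IL-17 and Toll-like receptor ligands, which act in large part through the transcription factor NF-kappaB. Neutrophils that arrive can make CXCL2 themselves and so draw in further neutrophils. In joints these chemokines are known from the entry of neutrophils into inflamed synovium, and in bone marrow CXCR2 helps mature neutrophils to leave for the blood.

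The study asked how loss of lymphatic function bears on TMJ arthritis, using mice with 1 mutant copy of Prox1, the gene of a transcription factor that specifies lymphatic endothelium. Both libraries came from the TMJ of C57BL/6 mice aged 8 to 10 weeks per the sample records, female per the study, that had received CFA into the joint, and each was made from cells captured in droplets. The groups were WT with CFA (1 library) and Prox1 mutant (Prox1+/−) with CFA (1 library), so both shared the CFA, no library without CFA is analysed here, and each genotype had no replicate. The Prox1 mutation is carried by all cells of the animal and not by lymphatic endothelium alone. The number of mice in each library and the time after CFA are not given in the sources used here. Since each genotype is 1 library, no test between genotypes was made, and every difference below compares 2 libraries.

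The 4 chemokine genes lie close together on chromosome 5 of the mouse genome (GRCm38), within 146.579 kb and all on the plus strand. Cxcl5 (ENSMUSG00000029371) lies at chr5:90759360-90761624, Cxcl3 (ENSMUSG00000029379) at chr5:90786103-90789600, Cxcl1 (ENSMUSG00000029380) at chr5:90891241-90893115 and Cxcl2 (ENSMUSG00000058427) at chr5:90903871-90905938. The receptor gene Cxcr2 (ENSMUSG00000026180) lies on another chromosome, at chr1:74153989-74161246, plus strand. The highest levels of Cxcl1, Cxcl2 and Cxcl3 were in different cell classes. Most inflammatory macrophages held Cxcl2, whether or not they held Cxcl1 or Cxcl3. In WT, at equal depth, Cxcl2 was in 94.4% of such cells with Cxcl1 and in 85.6% of those without. For Cxcl3 these shares were 94.4% and 84.2%. In the mutant library they were 98.4% and 84.5% for Cxcl1, and 97.7% and 85.6% for Cxcl3. The intervals of these shares overlapped, except for Cxcl1 in the mutant library. The sequences just before the starts of these 3 chemokine genes are shown because the genes share letters there. They are plus-strand RefSeq sequence of GRCm38.p6, at chr5:90891131-90891240 for Cxcl1, chr5:90903761-90903870 for Cxcl2 and chr5:90785991-90786100 for Cxcl3. Capitals mark the letters GGGNNNTTCC on either strand, a form of the kappaB motif that NF-kappaB binds, and the letters ATAAAAGG, a TATA box form.
Cxcl1: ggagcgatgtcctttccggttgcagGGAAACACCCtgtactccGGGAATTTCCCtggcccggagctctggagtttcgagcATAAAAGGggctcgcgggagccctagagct
Cxcl2: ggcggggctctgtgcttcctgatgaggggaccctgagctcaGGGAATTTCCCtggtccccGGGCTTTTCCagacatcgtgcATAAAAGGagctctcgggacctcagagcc
Cxcl3: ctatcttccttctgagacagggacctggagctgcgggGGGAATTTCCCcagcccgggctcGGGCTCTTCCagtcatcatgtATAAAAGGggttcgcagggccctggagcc

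All 3 pieces held GGGAATTTCC, which began 67 bases before the gene start given above in Cxcl1, 69 in Cxcl2 and 75 in Cxcl3, and which overlaps a match on the other strand. A further GGGNNNTTCC match that does not overlap it lay in each piece, 85 bases before that start in Cxcl1, 50 in Cxcl2 and 52 in Cxcl3, and ATAAAAGG lay at 30, 29 and 31 bases. Of 32851 mouse promoters searched on both strands over the 250 bases before the RefSeq start, which can differ from that of the gene, 0.0852% held GGGAATTTCC, 4.65% held GGGNNNTTCC and 1.54% held ATAAAAGG. The table has no promoter for Cxcl5, and the Cxcr2 promoter held none of these letters. A match is a description of the sequence and was not tested for binding.

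The WT library held 53517206 unique molecular identifiers (UMIs, each counting 1 captured transcript) over 5709 barcodes and the mutant library 62446987 over 7846. Cells were kept from 500 genes upward if mitochondrial UMIs made up less than 10%, which left 4352 WT and 5757 mutant cells, with a median of 6997 and 4848 UMIs per cell. Of the barcodes, 10 were shared by the libraries, 4 of them among kept cells. The level of Prox1, in counts per 1000000 UMIs (CPM), was 11.6 (95% interval 10.7 to 12.6) for the WT library and 5.80 (5.18 to 6.47) for the mutant. This level is over all kept cells and depends on the makeup of each library, so it is not a level per cell. Cells named endothelial were 1027 in WT and 515 in the mutant library. The cells fell into 45 clusters, of which 11 stayed unnamed and the others were named in 20 classes, by marker genes other than the 5 members. A name means that the cluster's markers are like those of that cell type, and its cells were not sorted or stained. The unnamed clusters held 10.6% of the WT and 35.4% of the mutant cells, and the dissected tissue also held marrow precursors and gland epithelium in addition to joint cells. Levels are CPM over the summed UMIs of a class with exact Poisson 95% intervals, shares carry exact Clopper-Pearson intervals and ratios an exact conditional interval, all of which cover counting error only.

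Neutrophils and macrophages held most Cxcl2 and Cxcl3 transcripts, stromal cells held most Cxcl5 transcripts, Cxcl1 was divided between both, and Cxcr2 was concentrated in neutrophils. Over all kept cells Cxcl2 was the most abundant of the 5, the WT library holding 60357 UMIs (1248 CPM) and the mutant 59223 (1090 CPM). Cxcl1 followed with 87.4 and 102.8 CPM. Cxcl3 stood at 60.6 and 33.5 CPM, Cxcl5 at 24.3 and 12.6 CPM, and Cxcr2 at 21.2 and 37.7 CPM. The method reads the 3' ends of transcripts, so CPM was not divided by gene length.

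**Figure D1:**
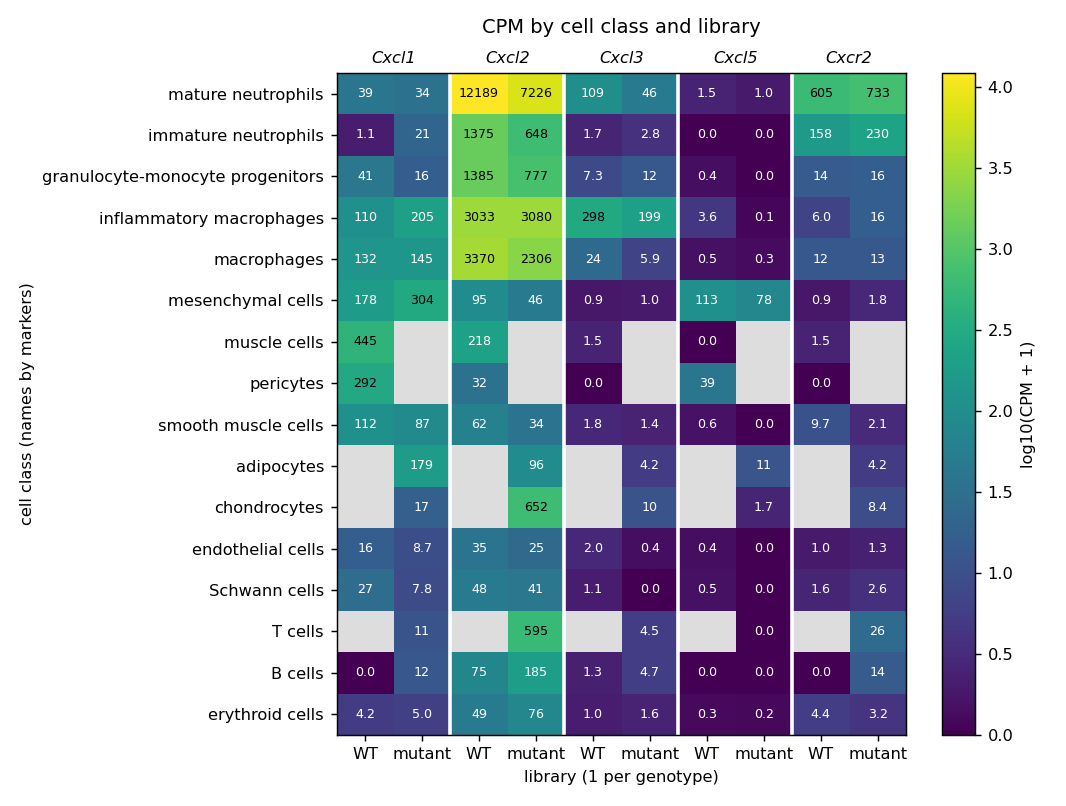
CPM of each gene (columns, WT and mutant library) in each cell class (vertical axis), printed in the cells and coloured by log10(CPM + 1); grey marks classes with under 50 cells in that library. Cxcl2 is high in the 5 myeloid classes at the top, Cxcl3 peaks in inflammatory macrophages (298 and 199 CPM), Cxcl5 in mesenchymal cells and Cxcr2 in mature neutrophils.

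Cxcl2, a chemokine that macrophages and neutrophils release early in inflammation, was highest in mature neutrophils, where the 178 WT cells gave 12189 CPM (11926 to 12456) and the 168 mutant cells 7226 CPM (7063 to 7392). Next in WT came macrophages with 3370 and inflammatory macrophages with 3033 CPM. The mutant library had these 2 classes in the opposite order, with 3080 CPM for the inflammatory cells and 2306 for the others. Granulocyte-monocyte progenitors (1385 CPM in WT, 777 in the mutant library) and immature neutrophils (1375 and 648 CPM) came below them, and the intervals of these neighbours overlapped in WT. The progenitor cluster also had 7 of 7 monocyte markers raised, with F13a1, Ccr2 and Plac8 among its leading genes. Whether it holds monocytes was not tested. To compare shares at 1 depth, each cell was thinned to 2000 UMIs, which left out 509 WT and 1269 mutant cells with fewer. At that depth 95.5% of WT and 92.4% of mutant mature neutrophils held a Cxcl2 UMI, as did 86.6% and 87.5% of inflammatory macrophages and 77.9% and 73.6% of macrophages. Erythroid cells, which should lack the transcript, held one in 4.14% (2.22 to 6.98) of WT and 11.1% (8.92 to 13.7) of mutant cells, at median depths of 9177 and 8921 UMIs, so shares at or below these values were read as background.

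Although mature neutrophils had the highest Cxcl2 level, they held 13.5% of the Cxcl2 UMIs in WT and 12.6% in the mutant library, with a median depth of 2871 and 4698 UMIs per cell. Inflammatory macrophages, whose cells were deeper (median 26908 and 17002 UMIs), held 45.5% and 38.7%, and macrophages 20.7% and 23.6%. Within mature neutrophils the level varied widely from cell to cell. The quartiles of a cell's Cxcl2 level in WT were 3917, 10138 and 20445 CPM, and in the mutant library 2038, 4090 and 10717 CPM. In immature neutrophils the median cell stood at 105 CPM in WT and at 0 in the mutant library, while single cells reached 16680 and 8481 CPM.

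**Figure D2:**
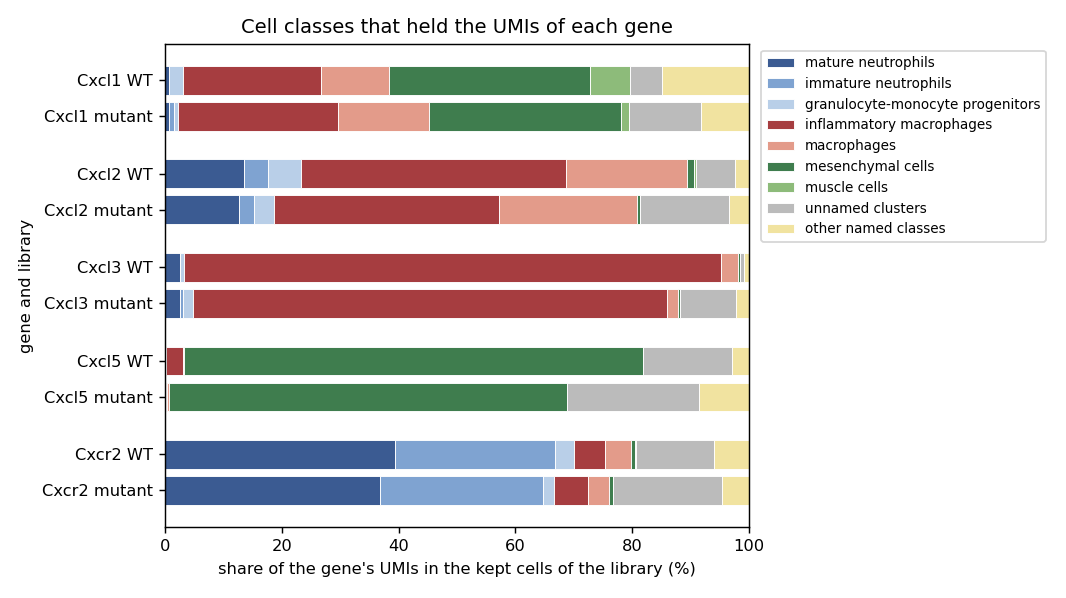
Share of each gene's UMIs in the kept cells of a library (horizontal axis, %) held by each cell class (colours), for each gene and library (vertical axis). Inflammatory macrophages hold 91.9% and 81.3% of Cxcl3, mesenchymal cells 78.7% and 68.2% of Cxcl5, and neutrophils the largest part of Cxcr2.

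Outside the myeloid classes, cells with at least 10 Cxcl2 UMIs held over 50% of the Cxcl2 in 8 of 20 combinations of class and library, a smaller part in 4, and were lacking in 8, among them Schwann cells and pericytes in both libraries. In T cells of the mutant library, 5 of 86 cells with at least 10 Cxcl2 UMIs held 93.1% of the class's Cxcl2, and their summed level of mature neutrophil markers was 17466 CPM against 840 CPM in the other T cells. In mutant chondrocytes 8 of 107 cells held 49.2%, with neutrophil markers at 32995 against 5576 CPM. In WT T cells 8 of 49 cells held 97.0%, with macrophage markers at 7822 against 189 CPM, and in WT smooth muscle 2 of 152 cells held 58.8%, with neutrophil markers at 84420 against 1420 CPM. The droplets of these 4 examples thus carried markers of a second cell type beside Cxcl2, and whether they hold 2 cells was not tested. Only 1 marker set was raised in the WT examples. Neutrophil markers in WT T cells were at 6405 against 6635 CPM, and macrophage markers in WT smooth muscle at 69.9 against 149 CPM. In the mutant examples both sets were higher. In endothelial cells, at 35.1 and 24.7 CPM, 7.42% and 5.45% of thinned cells held Cxcl2.

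Cxcl3, a close relative of Cxcl1 and Cxcl2, was narrower. The 321 WT inflammatory macrophages had 298 CPM (287 to 309) and the 318 mutant ones 199 CPM (189 to 210), and they held 91.9% and 81.3% of all Cxcl3 UMIs. Mature neutrophils followed at 109 CPM (85.4 to 137) and 45.7 CPM (33.6 to 60.7). Macrophages stood at 24.1 and 5.94 CPM, and mesenchymal cells were at or under 1 CPM in both libraries. Even where Cxcl3 was highest most cells lacked it at equal depth: 23.5% (18.9 to 28.7) of WT and 15.3% (11.4 to 20) of mutant inflammatory macrophages held a UMI, against 0.42% (0.09 to 1.21) of mutant erythroid cells. The class takes its name from the markers Nos2, Mmp12, Spp1, Arg1, Acod1 and Inhba, and the larger of its 2 clusters was led by Mmp12.

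Cxcl1, made by fibroblasts, endothelium and macrophages when they sense injury, was found in both stromal cells and macrophages. In WT its highest level was in muscle cells, a cluster led by the satellite cell gene Pax7, with 445 CPM (396 to 500) in 90 cells, followed by pericytes at 292 CPM (249 to 340) and mesenchymal cells at 178 CPM (169 to 188). In the mutant library mesenchymal cells stood at 304 CPM (291 to 319), above inflammatory macrophages at 205 CPM (195 to 216) and adipocytes at 179 CPM (149 to 213). Mutant muscle cells (36) and pericytes (35) were too few to be placed in that order, and their levels were 291 and 220 CPM. After thinning 40% (29.5 to 51.2) of WT muscle cells held Cxcl1, against 0.64% of WT erythroid cells. Because mesenchymal cells and macrophages were far more numerous, mesenchymal cells held 34.4% of Cxcl1 UMIs in WT and 32.8% in the mutant library, inflammatory macrophages 23.7% and 27.3%, and muscle cells only 6.86% and 1.38%. Neutrophils carried little Cxcl1, at 38.8 and 34.0 CPM in mature cells, and 37 of the 51 Cxcl1 UMIs of mutant immature neutrophils lay in 1 cell.

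Cxcl5, a chemokine of epithelium and stroma, was found chiefly in stromal cells. The 542 WT mesenchymal cells had 113 CPM (106 to 121) and the 355 mutant ones 77.8 CPM (70.9 to 85.1), and they held 78.7% and 68.2% of its UMIs. WT pericytes followed at 39.4 CPM, of which 63.6% was in 1 cell, and every other class with at least 50 cells was at or under 11.1 CPM. In the gland and airway epithelium of the mutant library, 22 cells, Cxcl5 stood at 302 CPM, but its 46 UMIs lay in 2 cells. Nearly all mesenchymal Cxcl5 came from 1 cluster, number 2, with 924 of 925 UMIs in WT and 440 of 468 in the mutant library. This cluster expressed general fibroblast markers together with the synovial lining genes Prg4 and Has1, which encode lubricin and a hyaluronan synthase.

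Within that cluster only 10.5% of WT and 10.8% of mutant cells held any Cxcl5 UMI, and the largest counts in a single cell were 213 and 92. Across each library 18 cells with at least 10 UMIs held 91.8% of Cxcl5 in WT and 72.2% in the mutant library. The other genes were spread over more cells. The 10 cells with the most UMIs held 79.3% and 55.1% of Cxcl5, 30.6% and 32.5% of Cxcl3, 15.5% and 15.9% of Cxcl1, 13.8% and 11.8% of Cxcr2, and 5.98% and 6.64% of Cxcl2. To reach 50% of the UMIs took 4 and 9 cells for Cxcl5 but 166 and 160 for Cxcl2.

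**Figure D3:**
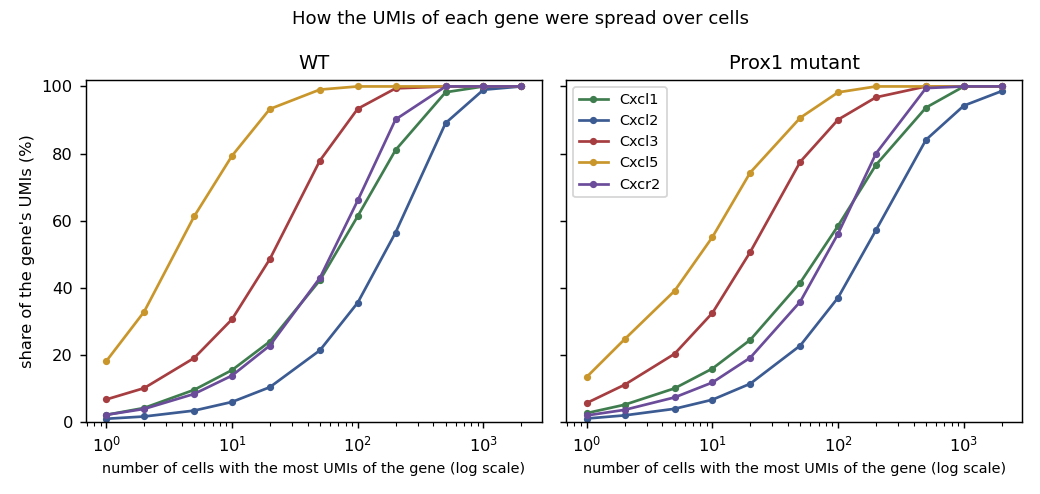
Share of each gene's UMIs (vertical axis, %) held by the cells with the most UMIs of that gene (number of cells on a log horizontal axis), in WT (left) and the mutant library (right). The Cxcl5 curve rises first, with 79.3% and 55.1% in 10 cells, and the Cxcl2 curve last, with 5.98% and 6.64%.

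The 28 mesenchymal cells with at least 10 Cxcl5 UMIs were then set beside the other 869 mesenchymal cells of both libraries. After Cxcl5 itself, the highest ratio was that of Saa3, an acute phase gene, at 4578 against 241 CPM. Kif26b (385 against 20.5 CPM) and Tnfsf8 (402 against 27.6 CPM) came next. Mmp3, a matrix-degrading enzyme, followed at 1125 against 102 CPM, and then Hp, which encodes haptoglobin, at 3075 against 307 CPM. Lower ratios were those of Adgrb3, Gm16685 and Ereg, and then Cxcl9, an interferon-induced chemokine, at 2775 against 322 CPM. The 28 cells were chosen by their Cxcl5 count and were deep, with a median of 27123 and 39413 UMIs in the 14 WT and 13 mutant cells of cluster 2, so the levels describe them and were not tested. The other 869 cells include cluster 13, which held only 1 of the 28, so the ratios also carry differences between the clusters.

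Cxcr2, the receptor through which all 4 ligands act, was concentrated in neutrophils and was highest in those with mature markers. In WT mature neutrophils had 605 CPM (547 to 667) and immature ones 158 CPM (140 to 178). In the mutant library these values were 733 CPM (681 to 787) and 230 CPM (211 to 249). The earlier of the 2 immature clusters, led by Fcnb, Camp and Cebpe, was lower, with a WT level of 15.3 and a mutant level of 63.3 CPM, than the later one, led by Ly6g and Mmp8, at 272 and 326 CPM. Granulocyte-monocyte progenitors, whose cluster also had raised monocyte markers, stood at 13.9 and 15.7 CPM. In the mutant library the level was higher in each cluster in turn, from progenitor to early immature, late immature and mature. In WT the first 2 of these had overlapping intervals. The order of these clusters is by their markers, and descent between them was not tested. After thinning 57.6% (48.7 to 66.1) of WT and 65.6% (56.9 to 73.7) of mutant mature neutrophils held Cxcr2. In B cells WT had 0 UMIs, which allows up to 3.86 CPM at a floor of 3 UMIs and 4.75 CPM by the Poisson interval, and the mutant library had 14.0 CPM, and 0.70% of thinned mutant erythroid cells held a UMI. Mature neutrophils held 39.4% of WT and 36.9% of mutant Cxcr2 UMIs, and immature neutrophils 27.4% and 27.9%.

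Cxcl2 and Cxcr2 met in the same cells, so mature neutrophils carried both a ligand and its receptor. Among thinned mature neutrophils with a Cxcr2 UMI, 93.4% in WT held Cxcl2, against 98.2% of those without. In inflammatory macrophages Cxcl3 was in 38.9% (23.1 to 56.5) of 36 WT cells with Cxcl1 and in 21.5% (16.7 to 26.9) of those without, and in 24.6% (14.5 to 37.3) and 12.8% (8.8 to 17.9) in the mutant library, with overlapping intervals in both. In mesenchymal cells Cxcl1 was in 52.4% (29.8 to 74.3) of 21 WT cells with Cxcl5 and in 12.5% (9.8 to 15.7) of those without, and in 52.9% (27.8 to 77.0) and 16.5% (12.5 to 21.1) in the mutant library, so here the intervals did not overlap. All these cells were thinned to the same 2000 UMIs. The mesenchymal shares pool clusters 2 and 13, and cluster 2 held 1400 of 1455 WT Cxcl1 UMIs and 924 of 925 WT Cxcl5 UMIs. These shares therefore also carry the difference between the clusters, and joint shares within cluster 2 alone are not given here.

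**Figure D4:**
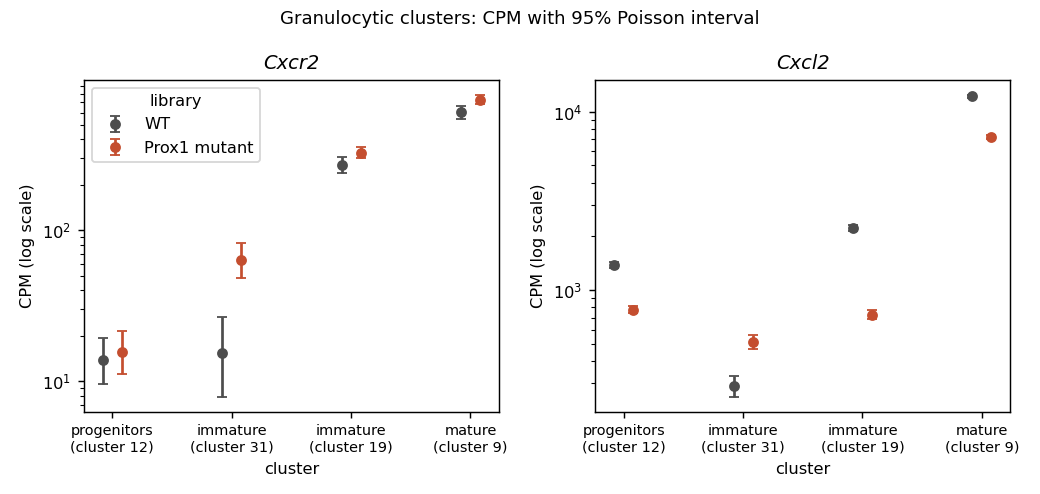
CPM (log vertical axis) of Cxcr2 (left) and Cxcl2 (right) with 95% Poisson intervals in the progenitor, early immature, late immature and mature neutrophil clusters (horizontal axis), for WT and the mutant library. Cxcr2 reaches 605 and 733 CPM in the mature cluster, where Cxcl2 is at 12189 and 7226 CPM.

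The design then asks how the mutant library differed from WT. Over all kept cells Cxcr2 was 1.77-fold higher in the mutant library (log2 ratio 0.83, 95% interval 0.72 to 0.94), while Cxcl5 was 1.92-fold (−0.94, −1.08 to −0.81) and Cxcl3 1.81-fold lower (−0.85, −0.94 to −0.77). Cxcl1 was 1.18-fold higher (0.23) and Cxcl2 1.15-fold lower (−0.20). None of the 5 was past 2-fold, where 6.95% of the 13696 genes with at least 200 UMIs were. These ratios mix the makeup of the libraries with the levels within cells. Averaging the CPM of single cells in place of summing gave 0.21 for Cxcr2 and −0.32 for Cxcl5, and UMIs per cell were 0.971 in WT and 0.970 in the mutant library for Cxcl1. Mature and immature neutrophils made up 1.38% and 3.67% of all UMIs in WT, and 1.89% and 4.58% in the mutant library.

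Within single classes and clusters, 18 combinations of a member and a class had enough UMIs, and 3 of them were past 2-fold, all of Cxcl2. Of all genes with enough UMIs, the share past 2-fold in either direction was 11.2% in B cells, 5.88% in mature and 3.12% in immature neutrophils, 4.03% in erythroid cells, 3.79% in inflammatory macrophages, 2.3% in macrophages, 3.23% in granulocyte-monocyte progenitors, 1.94% in endothelial cells, 1.51% in smooth muscle, 2.83% in cluster 2 and 3.52% in cluster 13. In mature neutrophils Cxcl2 was 1.69-fold lower per UMI in the mutant library (log2 ratio −0.75, −0.80 to −0.71) and Cxcr2 1.21-fold higher (0.28, 0.10 to 0.45), both short of the 2-fold that 5.88% of genes passed there. Mutant mature neutrophils were deeper, and per cell the order of sizes changed: Cxcl2 stood at 45.9 UMIs per WT cell and 44.3 per mutant cell, while Cxcr2 stood at 2.28 and 4.49. The 12 mature neutrophil markers summed to 81723 CPM for WT and to 121913 CPM for mutant cells. They summed to more, 215889 and 253811 CPM, in immature neutrophils, so the sum does not measure maturity, and its part in these ratios was not tested.

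In immature neutrophils Cxcl2 was past 2-fold, 2.12-fold lower in the mutant library (−1.09, −1.18 to −0.99), as 1.69% of genes were in that direction, and Cxcr2 was higher (0.54, 0.33 to 0.75). The lower Cxcl2 level was in the later cluster, which had 2234 CPM in the WT and 729 in the mutant cells, whereas the earlier cluster stood at 289 and 510 CPM. The value depended on how cells were grouped, since without integration of the libraries the ratio was −0.05, and with the mixed neutrophil and macrophage cluster added it was −0.54. That cluster, number 16, held 35 WT and 224 mutant cells, with Cxcl2 at 2926 and 2040 CPM and Cxcr2 at 122 and 120 CPM. In granulocyte-monocyte progenitors Cxcl2 was lower in the mutant library (−0.83, −0.91 to −0.75). The size of that ratio also depended on the processing. It was −0.28 with 30 principal components, −1.10 without integration and −1.22 without the highest doublet scores.

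Inflammatory macrophages showed different ratios for the 3 neighbouring ligands. For Cxcl2 the log2 ratio was 0.02 with an interval that held equality, Cxcl3 was 1.49-fold lower in the mutant library (−0.58, −0.67 to −0.49) and Cxcl1 1.86-fold higher (0.89, 0.78 to 1.01), with 3.79% of genes past 2-fold. The Cxcl1 difference was in the larger of the 2 clusters (WT 110 CPM, mutant 214 CPM), while the smaller stood at 109 and 98.3 CPM. Cxcl1 was held by 11.8% (8.38 to 15.9) of thinned WT and 21.3% (16.7 to 26.4) of thinned mutant cells. In macrophages Cxcl2 was lower in the mutant library (−0.55, −0.58 to −0.51) and the Cxcl1 interval held equality (0.13, −0.03 to 0.29), with 2.3% of genes past 2-fold. Cxcl3 had too few UMIs there, 89 in WT and 36 in the mutant library.

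Mesenchymal cells were compared by cluster, because the 10 leading genes of cluster 2 held 2 lining markers and 1 general mesenchymal marker. Over the whole marker lists the general mesenchymal markers stood higher, with a mean log2 ratio to other cells of 4.07 against 2.63 for lining markers. In cluster 2 (371 WT and 251 mutant cells) Cxcl1 was 1.60-fold higher in the mutant library (0.68, 0.58 to 0.78), at 244 and 390 CPM, and Cxcl5 1.66-fold lower (−0.73, −0.90 to −0.56), at 161 and 96.9 CPM. So the 2 stromal ligands differed in opposite directions, both short of the 2-fold that 2.83% of genes passed. Shares of thinned cells differed little, 20% and 24.2% for Cxcl1 and 5.83% and 6.73% for Cxcl5, and 10 cells held 86.1% and 83.4% of the cluster's Cxcl5. Cxcl2 in cluster 13 was 2.84-fold lower in the mutant library (−1.51, −1.96 to −1.08), where 2.15% of genes were past 2-fold in that direction. This rested on 250 and 54 UMIs in cells whose share with Cxcl2, 5.85% and 2.88%, was near the erythroid background, and at resolution 0.5 the matched cluster gave 1.35.

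In B cells Cxcl2 was 2.48-fold higher in the mutant library (1.31, 0.87 to 1.77), where 6.95% of genes were past 2-fold in that direction. The 159 mutant UMIs included 125 in 3 cells, and without the highest doublet scores the ratio was −0.0825. In smooth muscle Cxcl1 was lower in the mutant library (−0.36, −0.70 to −0.025), but with at least 1000 genes per cell it was higher (0.80). Of the 10 classes and clusters with a Cxcl2 ratio, 7 were lower in the mutant library, and inflammatory macrophages, erythroid cells and B cells were not. This count is not stable, since erythroid cells turned to −1.08 with 30 principal components, −1.01 at resolution 0.5 and −0.35 with the members among the clustering features, and cluster 2 turned to 0.0148 without the highest doublet scores.

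**Figure D5:**
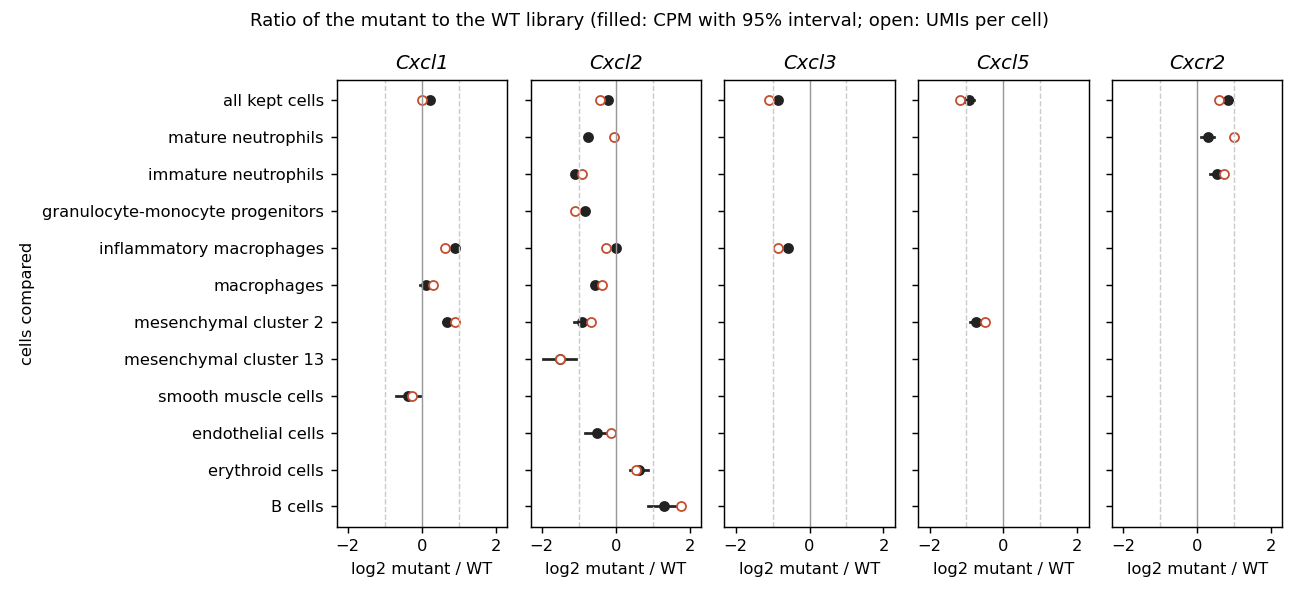
Log2 ratio of the mutant to the WT library (horizontal axis) for each gene (panels) in all kept cells and in each class or cluster with at least 200 UMIs of the gene (vertical axis); filled points are CPM ratios with 95% intervals, open points UMIs per cell, dashed lines 2-fold. Cxcl2 in mature neutrophils moves from −0.75 per UMI to −0.05 per cell, and Cxcr2 from 0.28 to 0.98.

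Genes around the axis were counted from 6 lists. Counts of 0 past 2-fold among so few genes are near the shares over all genes and were not read as results about a list. In mature neutrophils 5.88% of all genes with enough UMIs were past 2-fold in either direction, 2.94% in each. Among inducers of these chemokines and their receptors in mature neutrophils, 9 of 14 had enough UMIs. Osm, a cytokine of neutrophils, was higher in the mutant library (252 against 544 CPM, log2 ratio 1.11) and Tlr4, the lipopolysaccharide receptor, lower (414 against 162 CPM, −1.35). Of NF-kappaB and mRNA stability genes 0 of 8 were past 2-fold, with Cebpb, a transcription factor of granulocytes, at −0.95 and Nfkbiz, a co-regulator of NF-kappaB, at 0.53. Of genes that carry the CXCR2 signal 0 of 9 were past 2-fold, with Vasp, an actin regulator, at −0.45 and Prex1, a Rac activator, at 0.63. Of release and chemotaxis genes 0 of 9 were, with Cxcr4, the receptor that holds neutrophils in marrow, at −0.89.

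In immature neutrophils, where 3.12% of all genes were past 2-fold, the same 4 lists had 0 such genes among 7, 7, 11 and 10 measured. Il1b stood at −0.89, Cebpb at −0.83 and Fpr2, a formyl peptide receptor, at 0.84. In inflammatory macrophages 2.94% of all genes were past 2-fold higher and 3.79% in either direction. There 0 of 11 inducers, 0 of 12 NF-kappaB genes and 0 of 12 signal genes were past 2-fold. Of the release genes, 2 of 9 were higher in the mutant library, Fpr2 (143 against 288 CPM, 1.01) and Csf3r, the receptor for G-CSF (32.4 against 73.7 CPM, 1.19). The mature neutrophil markers, of which Csf3r is one, summed to 2340 CPM in WT and 4532 CPM in mutant inflammatory macrophages, and their part in these 2 values was not tested. In cluster 2 Il1b was lower (34.6 against 10.6 CPM, −1.71), 1 of 9 inducers, and 0 of 11 NF-kappaB and 0 of 5 signal genes were past 2-fold. Of all genes in cluster 2, 1.58% were past 2-fold lower and 1.25% higher. Ackr2, which encodes a scavenger receptor of CC chemokines and was the 1 gene with enough UMIs among 6 other ligands and receptors, stood at 16.7 and 33.5 CPM there, a log2 ratio of 1. Cxcl12, the marrow retention ligand, stood at 498 and 723 CPM (0.54). Dissociation-linked immediate early and heat shock genes had 0 of 6 past 2-fold in mature neutrophils, 0 of 9 in inflammatory macrophages and in cluster 2, and 1 of 5 in immature neutrophils, Fosb (1.06). Of all genes in immature neutrophils, 1.44% were past 2-fold higher. Over all kept cells 2 of 9, the heat shock genes Hspa1a (−1.30) and Hspa1b (−1.35), were lower, with a list median of −0.40 against −0.07 over all genes. In that direction 3.67% of all genes were past 2-fold. In endothelial cells the same 2 genes were lower (−1.72 and −1.96), where 1.03% of all genes were past 2-fold in that direction.

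Of 6 other ligands and receptors, 4 had enough UMIs over all kept cells. Ppbp, a platelet chemokine that also acts on CXCR2, had 6 UMIs in WT and 361 in the mutant library. It was the 1 gene of the list past 2-fold, as 3.28% of all genes were in that direction. The cell types that held Ppbp are not given here. Cxcl15 had 1 and 15 UMIs and Cxcr1, the second receptor of the group, 27 and 7. Csf3, which encodes G-CSF, had 111 and 88 UMIs. Ackr1, which encodes a chemokine-binding receptor of venules, had in endothelial cells a WT level of 107 and a mutant level of 53.7 CPM (log2 ratio −0.99). Its level in other classes is not given here. In erythroid cells the 6 genes of this list summed to 55.5 CPM for WT cells and to 68.7 CPM for mutant cells. There 1 gene of the list had enough UMIs, with a log2 ratio of 0.25, and it is not named here.

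The genes whose pattern was most like each member were found by the Pearson correlation of log2(CPM + 1) over 27 combinations of class and library with at least 50 cells, among 13696 genes. Points of 1 library share depth and free RNA, so the values are descriptions. For Cxcl2 the nearest were Il1b (r = 0.97), Tnf (0.96), Il1a (0.96), Clec4d (0.96) and Nlrp3 (0.96). The first 3 are inflammatory cytokines, and Clec4d is a marker that named the mature neutrophils. For Cxcl3 they were Ankrd66 (0.91), Clec4n (0.90), Il1a (0.90), Bcl2a1a (0.89) and Itgax (0.89), and for Cxcl5 the stromal genes Ptx3 (0.92), Ccl11 (0.92), Podn (0.91), Ccn5 (0.90) and Clec3b (0.90). Cxcr2 was nearest to Mrgpra2b (0.96), Retnlg (0.96), Il1r2 (0.96), Slfn4 and Trim30b, of which Retnlg and Il1r2 are markers that named the neutrophil classes. Cxcl1 had lower values, led by Rnf150 (0.85), Ifrd1 (0.83), Lsmem1 (0.82), 1200007C13Rik (0.81) and Hs1bp3 (0.81). Among the members Cxcl2 was near Cxcl3 (0.84) and Cxcr2 (0.78), and Cxcl1 was nearer to Cxcl5 (0.54) than to Cxcl2 (0.11).

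Unnamed clusters held 6.83% of Cxcl2, 15.2% of Cxcl5 and 13.4% of Cxcr2 UMIs in WT, and 15.3%, 22.6% and 18.8% in the mutant library. Cluster 1, led by haemoglobin genes and Igkc, had 676 mutant and 9 WT cells, and 67.0% of its thinned mutant cells held Cxcl2, far above the 11.1% of named erythroid cells. Markers of several other types were higher in its mutant cells than in named mutant erythroid cells, with mature neutrophil markers at 5163 against 903 CPM, macrophage markers at 1982 against 244 CPM and mesenchymal markers at 1103 against 93.8 CPM. Cluster 32, with Mmp10 and Saa3 among its leading genes, had Cxcl5 at 3588 CPM in 6 WT and 198 CPM in 67 mutant cells, and 92.1% of the WT UMIs lay in 1 cell. What these clusters are was not tested.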

How the data were processed

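The authors deposited UMI counts without normalization, made with Cell Ranger 7.0.1 on mm10 (GRCm38). The labels name the 3' v2 kit and the study's methods name v3.1. Barcodes with fewer than 500 genes or with 10% or more mitochondrial UMIs were dropped. As in the study's methods where stated, normalization was by SCTransform, followed by anchor integration and clustering at resolution 1.5 with 200 principal components (Seurat 5.3.0, sctransform 0.4.2, R 4.3.3), here with 3000 features and the 5 members left out. A cluster took the name of the type whose markers had the highest mean ratio, given 3 or more raised markers (at least 2 times the other cells with 5 CPM added, and in 10% of cells). It stayed unnamed with too few raised markers, where markers were not raised on average, where another lineage's markers led or were raised, or where it was shallow and no own marker led. Granulocyte-monocyte progenitors were exempt from the rule on raised markers of another lineage. Members and lists were chosen with earlier results of these data known.

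CPM, shares and ratios were computed in Python 3.11.15 with scipy 1.17.1 and numpy 2.4.6, from UMIs summed per class and library. Ratios were read for genes with at least 200 UMIs over both libraries, in classes or clusters with at least 50 cells in each. The genes named are the members, the up to 3 genes of each list farthest from a ratio of 1 in each direction, of which some are given, and the 5 genes nearest to each member. Genes of the Cxcl5-rich cells were chosen after their values were seen. Scrublet (scanpy 1.11.5) called 0 doublets by its own threshold, so leaving out the highest scores (159 WT and 344 mutant kept cells) was an alternative. Simulated data with known answers were used for cluster naming, for ratios and for counting intervals. In the naming simulation each type's own markers were raised, so its outcome was largely set in advance. Clustering, integration, thinning and doublet scores were not simulated. Other alternatives changed the cell filter, averaging, thinning, clustering and 1 droplet at a time.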

Additional observations from a re-analysis of the deposited data

How the results depend on the processing

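No paired analysis was possible because the genotypes have 1 library each and share only the replicate number 1. Alternatives that used UMIs per cell, named classes only, no shared barcodes or the mixed cluster were chosen after seeing the data. Over all kept cells, averaging the CPM of each cell gave log2 ratios of 0.17 for Cxcl1, −0.33 for Cxcl2, −0.38 for Cxcl3, −0.32 for Cxcl5 and 0.21 for Cxcr2, and UMIs per cell gave −0.0017, −0.43, −1.09, −1.18 and 0.59. With at least 200 genes Cxcl1 was 0.16 and Cxcl2 −0.27. With at least 1000 genes Cxcl2 was −0.14 and Cxcl3 −0.72, and without the highest doublet scores Cxcl2 was −0.24 and Cxcr2 0.66. Clustering alternatives do not apply to all kept cells. Cxcl3 in inflammatory macrophages was −0.76 by cell averages, −0.85 per cell, −0.72 with 30 principal components, −0.92 at resolution 0.5, −0.35 without integration and −0.72 with members among the features. In mature neutrophils Cxcl2 was −0.67 with at least 1000 genes, −0.61 without high doublet scores, −0.83 without 1 droplet, −0.0510 per cell, −0.87 with 30 components, −0.82 at resolution 0.5 and −0.97 without integration, and Cxcr2 was 0.98 per cell. In cluster 2 Cxcl1 was 0.40 by cell averages, 0.90 per cell and 0.51 at resolution 0.5, and Cxcl5 was −0.51 per cell, −1.10 with 30 components, −1.18 without integration and −0.98 with members among the features. Single values turned sign for Cxcl2 in B cells (−0.0825) and cluster 2 (0.0148) without high doublet scores, in cluster 13 at resolution 0.5 (1.35) and in erythroid cells with 30 components (−1.08), at resolution 0.5 (−1.01) and with members among the features (−0.35), and for Cxcl1 in smooth muscle with at least 1000 genes (0.80). The cause was not tested. With 1 library per genotype, differences between mice are not measured, and genes under 200 UMIs in a class were not read as ratios.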
